A study of Mus musculus with 6 samples.

Results

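The AP-1 and early growth response genes comprised the JUN family (Jun, Junb, Jund), the FOS family (Fos, Fosb, Fosl1, Fosl2), the related factor Atf3, the zinc finger factor Egr1 and the immediate early gene Ier3. They were taken by symbol from the count table, which lists all 10 among its 15528 gene symbols. The libraries were poly(A) RNA-seq of mouse cells in culture, which the labels call lymphatic endothelial, in 2 groups taken at 24 h: 3 libraries of cells given red blood cells (RBC) and 3 control libraries. The labels give no strain, genotype, age or red cell dose, and do not say whether replicates were separate cultures, so the p-values rest on library-to-library spread that may be technical. The series title concerns exchange between the brain and the cervical lymph nodes after subarachnoid haemorrhage, and the comparison asks how these cells' transcripts differ once red cells are present.

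AP-1 is a dimer of basic leucine zipper proteins that binds short DNA elements and turns signals of the MAP kinase cascades into transcription. JUN proteins pair with themselves or with FOS proteins, whereas FOS proteins need a JUN partner, so the makeup of both families sets which dimers can form. Fos, Fosb and Egr1 are classic immediate early genes, switched on within minutes of a stimulus and soon shut off again, while Fosl1, Fosl2 and Jund are expressed more steadily in many cells. In endothelium the early growth response factors are known for their response to shear stress and growth factors, and mouse embryos without Junb fail in part through defects of placental vessels.

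At 24 h Junb was higher with red blood cells and the FOS genes did not follow it past the test. Junb transcripts were 1.63-fold as abundant (95% interval 1.46 to 1.83) as in controls. The 2 abundant FOS genes, Fosl1 and Fosl2, had folds of 1.10 and 1.04, and the scarce Fos and Fosb had 0.58 and 0.56, none of the 4 past the threshold over all genes. Among the 9 genes with enough counts to be tested, 1 was called higher and 0 lower. In edgeR's quasi-likelihood test over all 11208 genes with enough counts, 1.16% were called higher and 0.303% lower at a Benjamini-Hochberg adjusted p under 0.05. At an unadjusted p under 0.05 there were 3 of the 9 higher (Junb, Atf3, Fosl1) and 0 lower, against 5.42% higher and 4.58% lower over all genes. DESeq2 also called 1 higher and 0 lower, against 1.51% and 0.598% over all genes. The median log2 fold change of the 9 was -0.04, against -0.003 over all genes tested. Egr1 was too low to be tested. In such bulk libraries, a change in the share of some cells and a change in RNA per cell cannot be told apart.

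Total counts were 18000112 to 18327247 in RBC libraries and 17263359 to 18381419 in control libraries. Control replicate 2 stood apart: chi-square divided by the number of genes, which is near 1 for sampling noise alone, came to 21.4 and 22.5 between it and the other controls. The same quantity was 1.80 between control replicates 1 and 3 and 1.58 to 1.89 among the RBC libraries. Without it 3 of the 9 genes were called higher and 1 lower, against 473 higher and 426 lower of all 11297 genes tested in that fit. Markers of the labelled cell type gave a mixed picture. Cdh5 had 11 counts over the RBC libraries and 7 over the controls, Kdr had 1 and 0, and neither Prox1 nor Lyve1 has a row among the symbols listed. Eng, by contrast, averaged 99.0 CPM (counts scaled to a common library total) with red blood cells and 99.3 CPM in controls, Pecam1 13.7 and 14.98 CPM, and Nrp2 361 and 272 CPM in the same order of groups. The 9 listed pan-endothelial markers summed to 117 to 119 CPM with red blood cells and 112 to 124 CPM in controls. The 10 listed lymphatic endothelial markers summed to 562 to 594 CPM with red blood cells and 399.8 to 502.8 CPM in controls. Nrp2 and Nr2f2 (146 and 161 CPM) made up most of that sum. Of the 4 tested genes of the lymphatic list, 1 was called, Stab1, at 63.5 and 30.9 CPM (edgeR adjusted p = 0.0029). Nrp2 was not called (edgeR adjusted p = 0.27). Markers of other tissues reached similar sums. The 8 listed fibroblast and mural markers had 451 to 469 CPM with red blood cells and 442 to 492 CPM in controls. The 7 listed epithelial and mesothelial markers had 602 to 623 CPM with red blood cells and 645 to 722 CPM in controls. Erythroid markers summed to 538 to 623.5 CPM with red blood cells and 3.36 to 3.87 CPM in controls. The 13 listed leukocyte markers summed to 56.1 to 61.0 CPM with red blood cells and 49.8 to 55.1 CPM in controls, where Ptprc and Adgre1 were at 0 counts. The part of RNA brought by added blood cells in the values below was not tested.

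The promoters of Junb, Atf3, Fos and Jun are shown because Junb and Atf3 had the largest estimates above 0, Fos is the founding FOS gene and Jun is the JUN gene that binds its own promoter. Each window runs from 250 bases before to 50 bases after the RefSeq transcript start on build GRCm38.p6, which differs from the GRCm39 of the count table. They lie at chr8:84978699-84978998 on the minus strand (Junb), chr1:191183284-191183583 on the minus strand (Atf3), chr12:85473640-85473939 on the plus strand (Fos) and chr4:95052173-95052472 on the minus strand (Jun). Capitals mark the motif matches described after them.
Junb: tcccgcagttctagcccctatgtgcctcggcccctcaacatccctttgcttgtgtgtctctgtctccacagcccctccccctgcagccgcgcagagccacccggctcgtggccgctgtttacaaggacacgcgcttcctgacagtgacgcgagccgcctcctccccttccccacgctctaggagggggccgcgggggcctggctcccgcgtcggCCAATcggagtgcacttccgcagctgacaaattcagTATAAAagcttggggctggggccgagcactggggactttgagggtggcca
Atf3: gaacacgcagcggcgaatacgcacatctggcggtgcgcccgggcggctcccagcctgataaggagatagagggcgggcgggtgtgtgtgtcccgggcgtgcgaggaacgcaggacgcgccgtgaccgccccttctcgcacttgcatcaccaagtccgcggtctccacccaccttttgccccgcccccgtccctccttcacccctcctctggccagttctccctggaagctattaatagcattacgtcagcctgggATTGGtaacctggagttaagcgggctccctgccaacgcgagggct
Fos: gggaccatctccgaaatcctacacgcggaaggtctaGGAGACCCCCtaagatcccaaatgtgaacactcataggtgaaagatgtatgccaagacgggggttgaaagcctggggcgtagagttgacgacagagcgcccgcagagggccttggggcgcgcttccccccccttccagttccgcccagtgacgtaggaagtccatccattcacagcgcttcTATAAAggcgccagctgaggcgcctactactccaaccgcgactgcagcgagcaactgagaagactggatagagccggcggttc
Jun: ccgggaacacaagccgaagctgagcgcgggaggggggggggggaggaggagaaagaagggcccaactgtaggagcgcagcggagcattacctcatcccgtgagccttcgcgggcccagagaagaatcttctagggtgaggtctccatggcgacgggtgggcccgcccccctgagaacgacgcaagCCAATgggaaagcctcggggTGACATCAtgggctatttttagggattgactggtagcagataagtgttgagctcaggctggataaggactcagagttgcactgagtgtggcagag

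Windows of 8 of the 10 genes were searched for 9 motifs on both strands. Egr1 and Fosl1 were not searched, so the counts below say nothing about their promoters. The AP-1 site TGACTCA and the cyclic AMP response element TGACGTCA were found in 0 of the 8 windows, against 5.20% and 1.79% of all 32851 promoters. The variant TGACATCA, in 3.62% of all promoters, was found in Jun at -45 to -38. A CCAAT box, in 37.4% of all promoters, was found in Jun, Junb, Atf3 and Ier3, and the TATA box TATAAA (13.6%) in Junb and Fos, at 1 to 6 and -33 to -28 from the annotated start. The 10-letter NF-kB motif, in 8.46% of all promoters, was found in Fos, Fosb, Fosl2 and Ier3 and not in the windows of Junb and Atf3. The EGR site GCGNGGGCG (5.55%) was found in Fosb and Fosl2, while the CArG box (1.63%) and the STAT site TTCNNNGAA (8.30%) were found in none of the 8. Sequence more than 250 bases before the start was not searched, so no gene is shown to lack these elements. None of these motifs overlapped another in the 4 windows shown. The GC content was 58.7% in the window of Fos, 68.3% in Fosb, 64.7% in Fosl2 and 54.0% in Ier3. It was 65.3% in Junb, 64.7% in Atf3, 60.0% in Jun and 46.7% in Jund, against a median of 52.67% over all promoters. The shares over all promoters were not matched for GC content. The motif matches describe letters in a short window and say nothing about binding.

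Among the JUN genes, Junb had 46.8, 41.1 and 44.8 CPM in the RBC libraries, against 26.3, 28.3 and 26.7 CPM in the controls. Every RBC library thus lay above every control library. The log2 fold change was 0.71 ± 0.07 (SE; adjusted p = 0.0015 in edgeR's quasi-likelihood test). Junb encodes a JUN protein that binds DNA with FOS partners and often counters Jun in growth control. Of the 130 genes called higher, 76 had a larger fold than Junb. Its call held in each of 18 alternative fits, with log2 fold changes between 0.66 and 0.76. One read source needs care: a non-coding Junb transcript overlaps 4 of the 8 annotated transcripts of Prdx2 on the opposite strand, and the strand setting of the counting is not given in the sources used here. Prdx2, a peroxiredoxin abundant in red cells, had 208 ± 2.15 CPM with red blood cells and 215 ± 26.0 CPM in controls (SD, n = 3 each; log2 fold change -0.05, not called).

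Jun had 149.999, 144 and 146 CPM with red blood cells and 149, 151 and 152 CPM in controls. The groups overlapped, and the log2 fold change was -0.04 (95% interval -0.15 to 0.08). Jun is the JUN protein with the strongest activating domain and a target of the JNK kinases. Jund, the JUN gene expressed most steadily in resting cells, had 253, 245 and 255 CPM with red blood cells and 251, 306 and 280 CPM in controls. The spread of Jund came from the controls, where replicate 2 was highest, and the log2 fold change was -0.15 (95% interval -0.32 to 0.02). Without control replicate 2 it was -0.08.

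**Figure D1:**
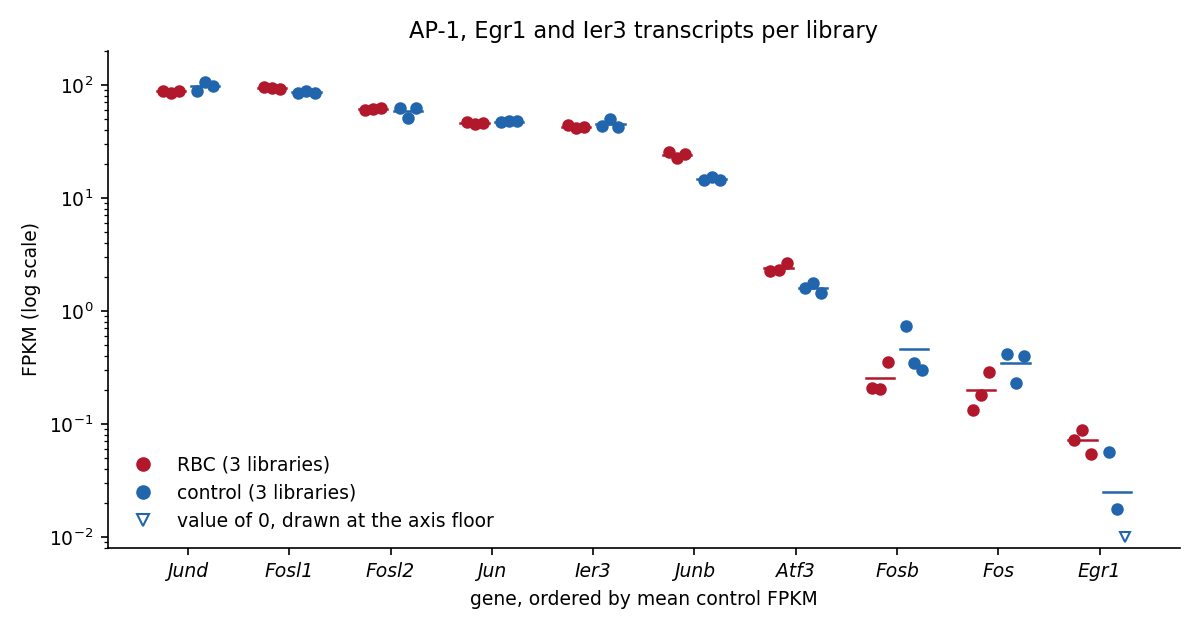
Abundance of the 10 genes in each library as FPKM (deposited by the authors; log axis), with RBC libraries in red left of control libraries in blue and a bar at each group mean. The Junb points of the 2 groups do not overlap (means 24.0 and 14.7 FPKM), Fos and Fosb lie under 1 FPKM in every library, and the open triangle is Egr1 at 0 in control replicate 3.

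Per transcript length the summed JUN family overlapped between groups, while the share of Junb in it did not. FPKM, the authors' values scaled to gene length and library total, summed over Jun, Junb and Jund to 157 ± 3.96 with red blood cells and 159 ± 10.5 in controls (SD, n = 3 each). Junb made up 15.9%, 14.6% and 15.3% of that sum in the RBC libraries, against 9.64%, 9.10% and 9.10% in the controls. Jund made up 55.5 ± 0.60% with red blood cells and 60.9 ± 1.996% in controls, and Jun 29.3 ± 0.37% and 29.8 ± 1.73% in the same order of groups. The Junb shares did not overlap between the groups, nor did those of Jund, whereas those of Jun did. Such shares add to 100%, so a higher Junb by itself lowers the others.

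**Figure D2:**
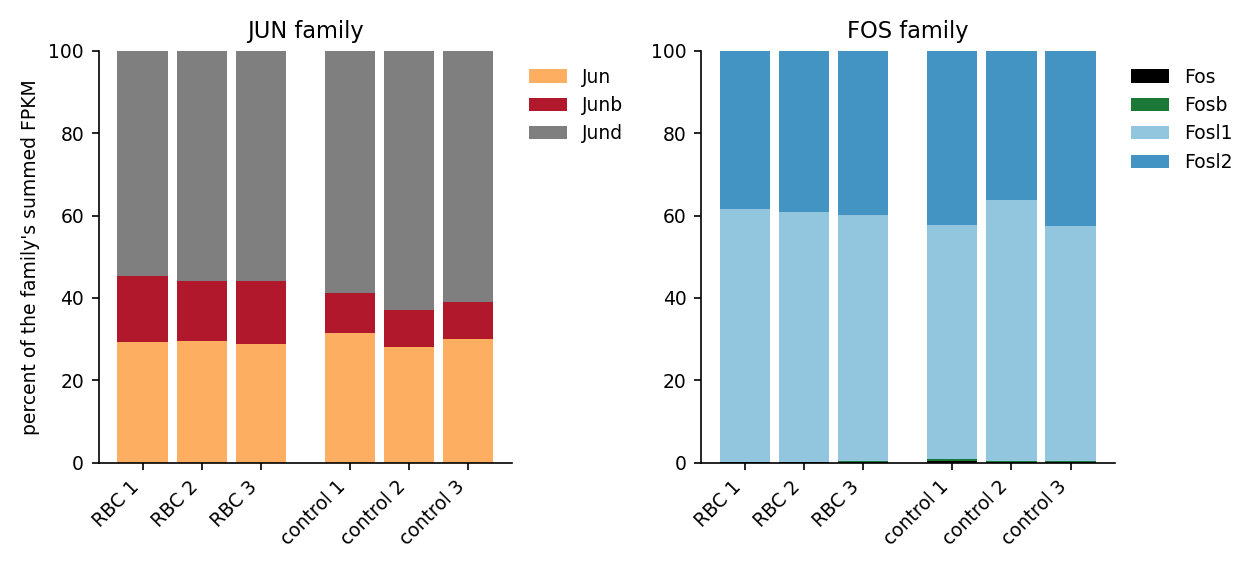
Share of each gene in the summed FPKM of its family (percent, bars from 0 to 100), with the 3 RBC libraries left of the 3 control libraries. Junb takes 14.6% to 15.9% of the JUN family with red blood cells and 9.10% to 9.64% in controls, and Fosl1 and Fosl2 make up nearly the whole FOS family in each library.

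The FOS family at 24 h consisted of Fosl1 and Fosl2 in both groups. Fosl1, which encodes FRA1, a FOS protein linked to cell motility and invasion, held 60.5 ± 0.87% of the family's summed FPKM with red blood cells and 59.1 ± 3.65% in controls (SD, n = 3 each). Fosl2, which encodes FRA2, held 39.2 ± 0.77% with red blood cells and 40.3 ± 3.53% in controls. Fos and Fosb together with these 2 summed to 155 ± 0.29 FPKM with red blood cells and 145 ± 4.84 FPKM in controls, and the RBC libraries lay above the controls.

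Fosl1 had 162, 160.2 and 157 CPM with red blood cells, against 143, 150.4 and 144 CPM in controls. The groups did not overlap, but the difference was small (log2 fold change 0.13 ± 0.05 SE) and missed the threshold over all genes (edgeR adjusted p = 0.43). Of all genes tested, 10.4% had every RBC library above every control and 9.19% every RBC library below. Without control replicate 2 the log2 fold change was 0.16 and the edgeR adjusted p 0.0021. Fosl2 had 422, 429.6 and 438 CPM with red blood cells and 439.9, 357 and 445 CPM in controls. The low value was that of control replicate 2. The log2 fold change of Fosl2 was 0.06 (95% interval -0.13 to 0.25), and it was -0.04 without that library.

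Fos, the founding member of the family, was near the detection limit, with 5, 7 and 11 counts in the RBC libraries and 15, 9 and 15 counts in the controls. The groups overlapped, and the log2 fold change was -0.77 ± 0.38 (SE; edgeR adjusted p = 0.55). Fos passed the low-count filter through 2 control libraries and 1 RBC library. Fosb, whose protein also occurs in a truncated and longer-lived form, had 14, 14 and 24 counts with red blood cells and 48, 24 and 20 counts in controls. Control replicate 1 was highest. The log2 fold change of Fosb was -0.84 ± 0.40 (SE; edgeR adjusted p = 0.54), it was -0.34 without control replicate 1, and without control replicate 2 it was -1.01 with an adjusted p of 0.025. The 95% intervals of both genes, 0.32 to 1.06 as a fold for Fos and 0.30 to 1.04 for Fosb, hold folds far below 1, so these depths do not show that they stayed the same. Exact 95% intervals on the summed counts were 0.33 to 0.996 for Fos and 0.39 to 0.79 for Fosb. These cover counting error alone and leave out the spread between libraries.

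**Figure D3:**
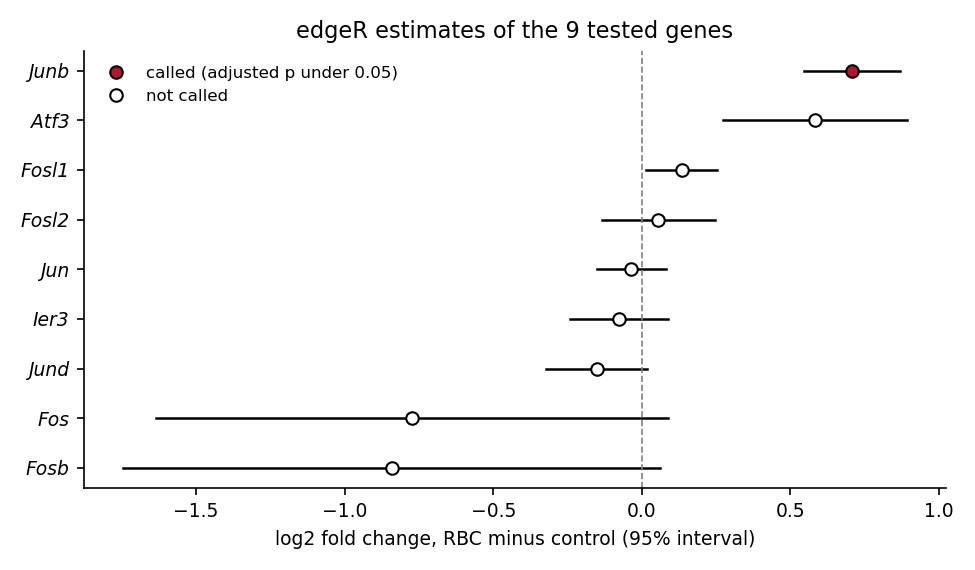
Log2 fold change (RBC minus control) of the 9 tested genes with unadjusted 95% intervals from edgeR, filled where the adjusted p was under 0.05. Junb at 0.71 is the filled point, the intervals of Fosl1, Fosl2, Jun, Jund and Ier3 are narrow and lie near 0, and those of Fos and Fosb are wide.

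The contrast of Junb with each FOS gene was made within libraries, as the log2 ratio of their counts with 0.5 added to each. For Junb over Fosl1 this ratio was -1.79, -1.96 and -1.81 in the RBC libraries, against -2.44, -2.41 and -2.43 in the controls. The groups did not overlap, and the mean ratio was 1.49-fold as high with red blood cells. For Junb over Fosl2 it was -3.17, -3.39 and -3.29 with red blood cells and -4.06, -3.65 and -4.06 in controls, 1.56-fold as high. For Junb over Fosb it was 5.86, 5.70 and 5.04 with red blood cells and 3.23, 4.41 and 4.54 in controls, 2.78-fold as high. The groups overlapped in neither of these pairs. An exact two-sided permutation test over the 6 libraries gave p = 0.10 for each of the 3 pairs (also 0.10 after Benjamini-Hochberg adjustment), which is the smallest value that 3 against 3 allows. Without control replicate 1 the Fosb ratio differed by 1.06 on the log2 scale rather than 1.48. Fos had under 10 counts in some libraries and its pair was not tested; the ratio averaged 6.68 ± 0.56 with red blood cells and 5.20 ± 0.50 in controls (SD, n = 3 each). The 3 ratios share the Junb counts and are not independent of its fold change.

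**Figure D4:**
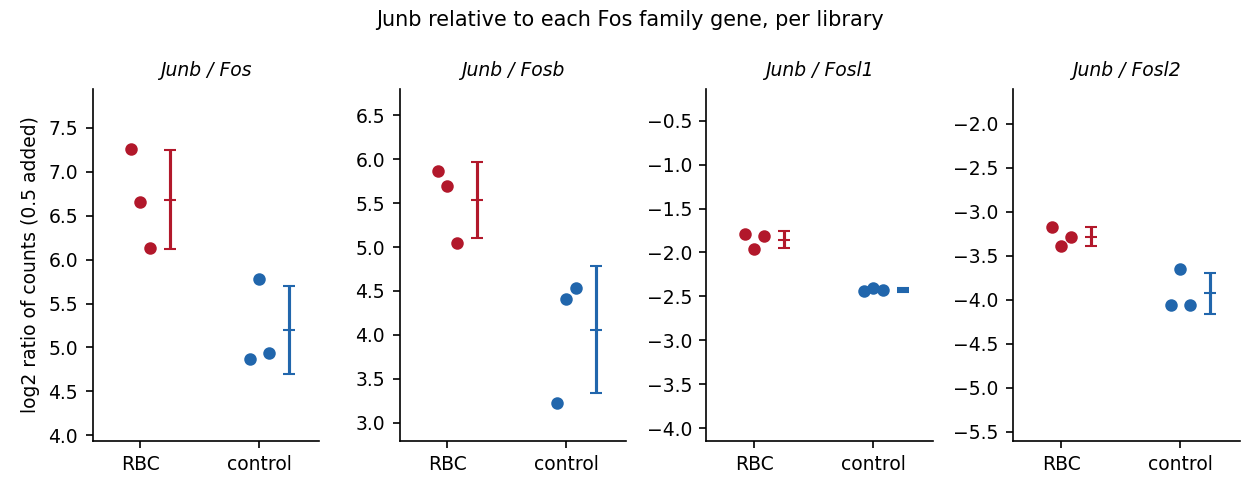
Log2 ratio of Junb counts to those of each FOS gene (0.5 added to each count) per library, RBC left of control, with mean and SD beside the points and the same span of 4 log2 units on each vertical axis. In all 4 panels the RBC points lie above the control points; in the Junb over Fosl1 panel the difference of means is 0.57.

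By length-scaled level the order of the genes with red blood cells was Fosl1 (93.7 ± 1.52 FPKM), Jund (87.3 ± 1.78), Fosl2 (60.7 ± 1.08), Jun (46.1 ± 0.92), Ier3 (42.7 ± 1.23), Junb (24.0 ± 1.58), Atf3 (2.39 ± 0.21), Fosb (0.25 ± 0.09), Fos (0.20 ± 0.08) and Egr1 (0.072 ± 0.017) (SD, n = 3 each). In controls Jund came first with 97.0 ± 9.58 FPKM, before Fosl1 with 85.5 ± 2.35 and Fosl2 with 58.5 ± 6.95. Next came Jun with 47.2 ± 0.54 FPKM, Ier3 with 45.05 ± 3.90 and Junb with 14.7 ± 0.59. Fosb and Fos overlapped in both groups. In controls Jund overlapped Fosl1, and Jun overlapped Ier3, whereas neither pair overlapped with red blood cells. Both control overlaps came from control replicate 2, where Fosl1 had 88.2 FPKM and Ier3 49.5 FPKM. In control replicates 1 and 3 Jund had 87.3 and 97.2 FPKM, above Fosl1 with 83.8 and 84.5. Jun had 46.6 and 47.7 FPKM in these 2 libraries, above Ier3 with 43.4 and 42.3. Junb kept its place between Ier3 and Atf3 in both groups.

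Atf3 encodes a stress-induced factor that pairs with JUN proteins and can repress transcription. It had 80, 83 and 94 counts in the RBC libraries, against 54, 64 and 51 counts in the controls. Every RBC library lay above every control. The log2 fold change was 0.58 ± 0.14 (SE), close to that of Junb, but with fewer counts behind it Atf3 missed the threshold over all genes (edgeR adjusted p = 0.099). The adjusted p lay between 0.0060 and 0.42 over 18 alternative fits. It was under the threshold without control replicate 2 (0.0072) and in voom with library quality weights (0.0060). Together with Junb and Fosl1, Atf3 made 3 of 9 tested genes with no overlap between groups, a pattern seen in 19.6% of all genes tested.

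Egr1, the best known of the early growth response factors, had 4, 5 and 3 counts in the RBC libraries and 3, 1 and 0 counts in the controls. The sums of 12 and 4 counts gave a ratio of 2.95 with an exact 95% interval of 0.90 to 12.6 that covers counting error alone. No difference was detectable at this depth. Its relatives were as scarce: Egr2 had 10 counts over the RBC libraries and 6 over the controls, Egr3 had 9 and 1, and Egr4 is not listed in the table used here. The corepressor Nab1, which binds EGR proteins, had 67.1 ± 1.92 CPM with red blood cells and 60.4 ± 1.29 CPM in controls (SD, n = 3 each; log2 fold change 0.15, edgeR adjusted p = 0.37). It was called higher without control replicate 2. Neither of the 2 tested genes of that list, Nab1 and Nab2, was called with all libraries or in DESeq2, and 1 had an unadjusted p under 0.05.

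Ier3 is induced by growth factors and NF-kB and acts on cell survival. It had 48.1, 45.5 and 46.2 CPM with red blood cells and 47.3, 54.0 and 46.1 CPM in controls. The groups overlapped and control replicate 2 was highest. The log2 fold change of Ier3 was -0.08 (95% interval -0.24 to 0.09), and without that library it was -0.003.

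Some transcript features were common to the genes beyond their names. In the GENCODE M21 annotation 3 of the 10, the JUN genes, consist of 1 exon, as do 7.19% of 21875 coding genes. Junb therefore shares the absence of introns with Jun and Jund, which did not pass the test. The pentamer ATTTA of AU-rich elements, which mark short-lived mRNAs, occurs 4 or more times in the 3′ UTR of Fos, Fosl2, Jun and Ier3, and in 24.96% of 20642 genes with a 3′ UTR. It occurs 2 times in Junb and 3 times in Atf3. The longer form TTATTTATT was found in Fos and Fosl2 and in 6.91% of genes. Longer UTRs hold more matches by length alone: that of Fosl2 has 4653 bases and that of Junb 485, against a median of 799.

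Genes that act above and beside AP-1 showed few calls. Of 19 MAP kinase cascade genes, which carry the signal to AP-1, none was called in edgeR or DESeq2 and 1 had an unadjusted p under 0.05, Map2k3 (log2 fold change -0.15). Their median was -0.05 and the range -0.15 to 0.09. Of 14 tested MAP kinase phosphatases and feedback inhibitors none was called and 2 had an unadjusted p under 0.05, Dusp7 (0.27 ± 0.06 SE) and Dusp10 (0.18 ± 0.06). Both dephosphorylate MAP kinases. DESeq2 called 1 of this list, and both were called higher without control replicate 2, as were 473 of all 11297 genes tested in that fit. Another list of 11 tested genes held ternary complex factors, Srf and its cofactors, CREB family factors and the coactivators Crebbp and Ep300. Several of these drive Fos and Egr1. None of the 11 was called in edgeR or DESeq2 and 0 had an unadjusted p under 0.05 (median 0.07).

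The bZIP partners and small Maf factors, which can pair with JUN or FOS proteins, had 0 calls among 11 tested genes in edgeR and DESeq2 and 1 gene with an unadjusted p under 0.05 (median 0.004). That gene was Mafg, with 220.6 ± 1.49 CPM in RBC libraries and 196 ± 8.99 CPM in controls (SD, n = 3 each; log2 fold change 0.17), and it was called higher without control replicate 2. Jdp2, a repressor that dimerizes with JUN proteins, had a log2 fold change of 0.21 without a call. Among 11 regulators of JUN and FOS protein turnover, edgeR called 0 and DESeq2 called 1, and 2 had an unadjusted p under 0.05. These were Smurf1, a ubiquitin ligase (0.34 ± 0.08 SE; edgeR adjusted p = 0.13), and the pseudokinase Trib3 (0.23 ± 0.09; 0.40). Without control replicate 2 there were 2 calls, both higher, against 473 higher and 426 lower of all 11297 genes tested in that fit.

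Of 26 other immediate early genes tested, 1 was called higher and 1 lower. At an unadjusted p under 0.05 there were 2 higher and 10 lower, against 5.42% and 4.58% over all genes, and 17 of the 26 estimates were negative. DESeq2 called 1 higher and 3 lower. The median log2 fold change was -0.10, against -0.003 over all genes. Zfp36l1, which binds AU-rich elements and speeds mRNA decay, rose to 92.2 ± 4.77 CPM with red blood cells, against 68.8 ± 0.67 CPM in controls (SD, n = 3 each; log2 fold change 0.42 ± 0.06 SE, edgeR adjusted p = 0.0089). Its call was lost without RBC replicate 1 or 3 (log2 fold change 0.41 and 0.39). Ier5l, a relative of the immediate early gene Ier5, fell to 35.7 ± 3.51 CPM, against 50.4 ± 4.45 CPM in controls (-0.50 ± 0.09 SE, edgeR adjusted p = 0.033), a call that ended on leaving out control replicate 3 (-0.48) or any of the RBC libraries (-0.58 to -0.44). Rhob, a small GTPase of the endosome (-0.29 ± 0.06; 0.052), and the kinase Sgk1 (-0.20 ± 0.05; 0.13) were next by p. Without control replicate 2 the list had 4 calls higher and 9 lower of 27 tested. Over all 11297 genes tested in that fit, 473 were called higher and 426 lower.

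Of 19 tested genes listed as AP-1 targets, 0 were called higher and 3 lower, with a median of -0.07. DESeq2 also called 0 higher and 3 lower. At an unadjusted p under 0.05 there were 3 higher and 9 lower, against 5.42% and 4.58% over all genes. Fosl1, itself a FOS gene described above, is in this list and 1 of the 3 higher. Ptgs2, the inducible cyclooxygenase, fell to 241 ± 2.31 CPM with red blood cells, against 299.8 ± 13.6 CPM in controls (log2 fold change -0.31 ± 0.05 SE, edgeR adjusted p = 0.027). The secreted matrix protein Spp1 fell by 0.39 ± 0.08 and the intermediate filament Vim by 0.36 ± 0.07 on the log2 scale (SE; edgeR adjusted p = 0.043 each). Leaving out control replicate 1, control replicate 3 or any of the RBC libraries ended each of the 3 calls, with estimates of -0.44 to -0.28. Without control replicate 2 there were 1 higher, again Fosl1, and 7 lower, against 473 higher and 426 lower of all 11297 genes tested. Next by p, and not called, were the haem-degrading enzyme Hmox1 (-0.23 ± 0.06), the cytokine Il6 (0.58 ± 0.17, at 2.04 CPM with red blood cells and 1.36 CPM in controls) and the lymphangiogenic growth factor Vegfd (-0.20 ± 0.07). Hmox1 was called lower without control replicate 2, and Il6 was called higher in limma on FPKM. Many other factors act on these genes, so the list does not measure AP-1 activity.

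The list that moved beside Junb was that of NF-kB subunits and early targets, with 8 of 12 tested genes called higher, 0 lower and 12 positive (median 0.80). At an unadjusted p under 0.05 there were 12 higher and 0 lower, against 5.42% and 4.58% over all genes, and DESeq2 called 9 higher and 0 lower, against 1.51% and 0.598%. The chemokines Ccl2 (2.79 ± 0.08 SE, log2 scale) and Cxcl1 (2.06 ± 0.07) and the adaptor Traf1 (2.02 ± 0.14) rose most in the list. The subunit Relb (1.06 ± 0.07) and the inhibitor Nfkbia (1.03 ± 0.07) followed. By size Junb, at 0.71, lay between Tnip1 (0.58 ± 0.07 SE), a partner of the ubiquitin editor A20, and Nfkb2 (0.86 ± 0.07) among the called genes. Of the 4 genes not called, the first 3 by p were the subunit Nfkb1 (0.30 ± 0.06; edgeR adjusted p = 0.051), Birc3, a ubiquitin ligase of TNF signalling (0.74 ± 0.18; 0.13), and the subunit Rel (0.27 ± 0.10; 0.40). Nfkb1 was called in DESeq2 and without control replicate 2. Tnfaip3, which encodes A20, had the smallest called rise (0.34 ± 0.07); leaving out control replicate 3 or any of the 3 RBC libraries ended its call, with estimates of 0.32 to 0.37. This list was chosen with earlier results of these data known, so its counts are not an independent test. Ier3, also induced by NF-kB but not in the list, had a log2 fold change of -0.08. The blood cell markers were higher in the same RBC libraries, and their part in the values of this list was not tested.

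**Figure D5:**
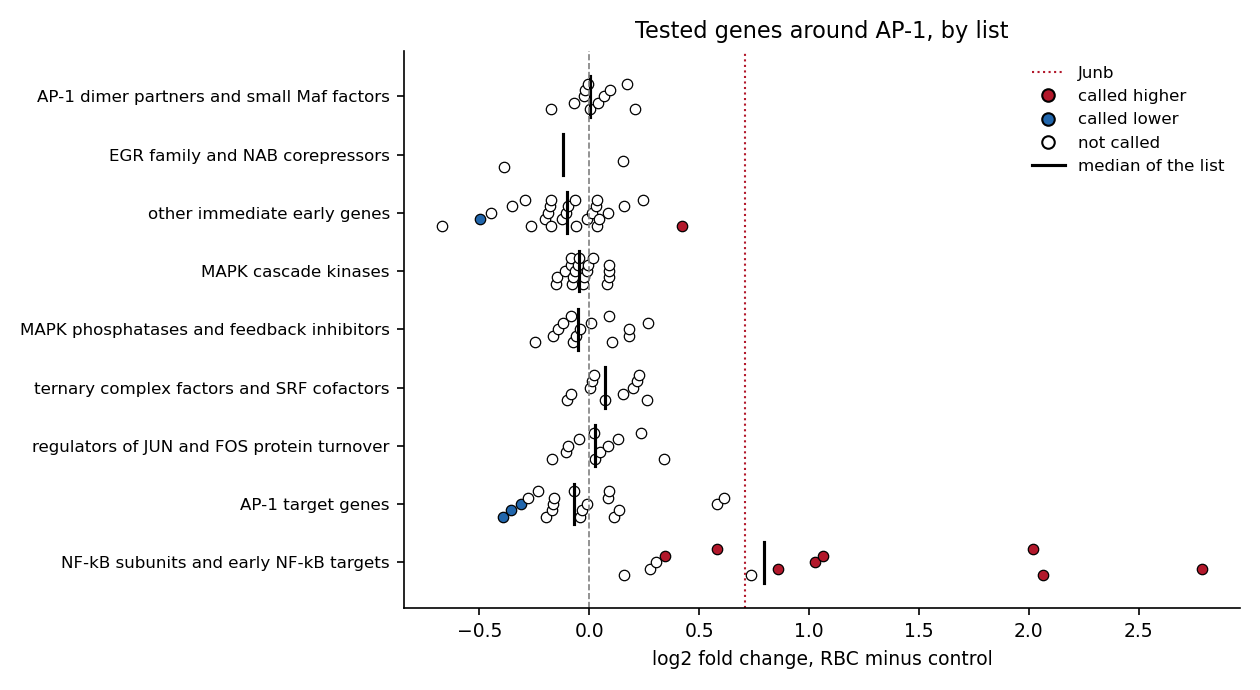
Log2 fold change (RBC minus control, edgeR) of each tested gene in 9 lists around AP-1, with called genes filled in red (higher) or blue (lower), the median of each list as a black bar and the value of Junb as a dotted line. The NF-kB list has a median of 0.80 and 8 calls, while the medians of the other 8 lists lie between -0.12 and 0.07.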

How the data were processed

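RNA of 6 libraries (3 RBC, 3 control, grouped and numbered by sample title) was extracted with TRIzol and made into stranded poly(A) libraries, per the labels' protocols. The authors deposited raw counts per gene symbol and, in a second table, FPKM values. The build GRCm39 comes from the submitters' processing notes; no aligner, counter, strand setting or annotation was given in the sources used. Totals of 17263359 to 18381419 counts per library set the precision, and intervals on raw counts cover counting error only.

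The tests on counts used edgeR 4.0.16 (R 4.3.3): filterByExpr (minimum count 10, minimum total 15; 11208 genes kept), TMM scaling, glmQLFit and glmQLFTest with the group as design, two-sided, with Benjamini-Hochberg adjustment over all genes tested. CPM are scaled to the library total. FPKM served to compare levels between genes and, with limma 3.58.1 on log2(FPKM + 1) for genes of at least 1 FPKM in a group, as an alternative. Other alternatives were RLE scaling, library size alone, DESeq2 1.42.0, voom with and without library weights, no filter, 1 CPM in 3 libraries, no erythroid genes, a replicate block, and leaving out each library, with the filter rerun. The pipeline was tested on simulated data.

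The genes, the lists and the contrast were chosen with earlier results of these data known. All 10 genes are named. From each list around AP-1, every called gene and up to 3 others in order of p are named. Of the cell type marker lists, sums and some genes are given, not every called gene. List symbols were matched exactly. Promoter windows are RefSeq's (GRCm38.p6) and transcript features GENCODE M21's.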

Additional observations from a re-analysis of the deposited data

How the results depend on the processing

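Junb was called higher in each of 18 alternative fits, with log2 fold changes of 0.66 to 0.76 and adjusted p of 2.9e-14 to 0.017. The number of the 10 genes called higher was 1 in edgeR, 3 in voom with library quality weights, and 1 to 3 with a library left out; the number called lower was 0, and 0 to 1 with a library left out. Fosl2 changed sign in voom with library quality weights (-0.029) and without control replicate 2, and was called in no fit; its range with a library left out was -0.041 to 0.11. Over all genes, 130 were higher and 34 lower. There were 362 higher and 289 lower in voom with library quality weights, 67 lower in DESeq2, and 60 to 473 higher and 2 to 426 lower with a library left out, the top of both ranges without control replicate 2. The weight of that library in voom was 0.12, against 1.1999 to 1.86 for the other 5. The cause was not tested. With the replicate number as a block, Junb had 0.71 and stayed called, 1 of the 10 genes was called higher and 0 lower, and 113 genes were higher and 13 lower over all genes. The calls of Ptgs2, Spp1, Vim and Tnfaip3 were lost in that fit. Same-numbered libraries correlated by -0.01, 0.04 and 0.06 in their deviations from the group means. Control replicate 2 enters every control deviation through the group mean, so these values cannot exclude a pairing by number. The ratios of Junb to Fosb, Fosl1 and Fosl2 kept their sign in all 9 alternatives each, with differences of 1.06 to 1.72, 0.54 to 0.63 and 0.57 to 0.78 with a library left out. The replicate block gives the main difference of these ratios by construction. Ratios of FPKM repeat those of counts with nothing added, so neither is a separate check. Depth limits Fos, Fosb and Egr1, which had 4 to 92 counts over a group.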
